A study of Mus musculus with 6 samples.

Results

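The immediate early genes were followed in RNA-seq of mouse small intestinal mucosa. The set held 10 genes named by symbol, Fos, Fosb, Jun, Junb, Egr1, Atf3, Ier2, Dusp1, Nr4a1 and Btg2, out of the 22700 genes listed in the expression table. Gene identifiers in the table stand beside values of other genes, and they were returned to their own rows by ranking. A row was found in this way for 9 of the 10 genes, and Nr4a1, whose rank lies beyond those the ranking could place, was not analysed here. All 9 placed genes passed the filter on low values (at least 1 FPKM in at least 2 libraries), among 13089 rows tested.

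The samples were 6 libraries, 1 per C57BL/6 mouse, from the mucosa of the middle small intestine. The 3 KO libraries (K79S, K82S and K86S) came from alk-SMase knockout mice, in which Cre recombinase had removed exon 2 of Enpp7, and the 3 WT libraries (W83S, W89S and W90S) came from wildtype mice. Enpp7 encodes alk-SMase, an enzyme of the gut lining that splits sphingomyelin into ceramide. No treatment is named for either genotype, all animals were killed under isoflurane anaesthesia, and neither age nor sex is named in the sources used here. The cell type in which Cre acted is not given in the sources used here either. Values are FPKM, read counts divided by transcript length and by the mapped reads of the library, so that levels can be compared between genes. The read counts from which they were made were not estimated here.

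Immediate early genes are transcribed within minutes of a stimulus without the need for new protein, through factors already bound to their promoters, such as CREB at cAMP response elements (CRE) and SRF with its partners at CArG boxes. Their mRNAs are short-lived, often because of AU-rich elements in the 3′ UTR, and many encode transcription factors. Fos and Jun proteins pair to form AP-1. In the gut such genes are known to respond to growth factors, feeding, injury and the handling of tissue.

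Some features common to the genes can be seen in the annotation (GRCm38, GENCODE M21) and did not depend on expression. The 9 genes had a median span of 4235 bp and a median of 2 exons, against 20917 bp and 9 exons for 9098 tested protein-coding genes with a 3′ UTR. Their 3′ UTRs held a median of 3 copies of the AU-rich pentamer ATTTA, against 1 for the same genes, and 55.6% of them held at least 3 copies, against 30.8%. These 3′ UTRs were also longer, with a median of 1186 against 869 bp. Per kb of 3′ UTR the median was 2.53 against 1.09 copies. Btg2 had 5 copies, Fos, Jun and Dusp1 had 4 each, Atf3 had 3, Junb and Egr1 had 2 each, Fosb had 1 and Ier2 had 0. Fos lies on the plus strand at chr12:85473890-85477273, while the other 3 shown here are on the minus strand, Jun at chr4:95049034-95052222, Btg2 at chr1:134075170-134079120 and the model of Dusp1 at chr17:26505590-26562128.

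Upstream sequences are shown for Jun, Btg2 and Dusp1, whose values did not overlap between the genotypes, and for Fos, the most abundant of the set. Each is the stretch from -200 to -1 before the RefSeq start site (GRCm38.p6), on the strand of the gene, except that Dusp1 stops at -48, where an M21 exon begins. Capitals mark the CRE (TGACGTCA), a CRE variant (TGACATCA), the CRE core (TGACG) or the TATA box (TATAAA), read on both strands. Every full CRE also holds the core. The sequence of Jun lies at chr4:95052223-95052422, that of Btg2 at chr1:134079156-134079355, that of Dusp1 at chr17:26508520-26508672 and that of Fos, on the plus strand, at chr12:85473690-85473889.
Jun: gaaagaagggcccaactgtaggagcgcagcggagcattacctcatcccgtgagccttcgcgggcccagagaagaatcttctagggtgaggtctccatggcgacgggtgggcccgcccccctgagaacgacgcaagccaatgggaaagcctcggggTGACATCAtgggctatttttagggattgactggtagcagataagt
Btg2: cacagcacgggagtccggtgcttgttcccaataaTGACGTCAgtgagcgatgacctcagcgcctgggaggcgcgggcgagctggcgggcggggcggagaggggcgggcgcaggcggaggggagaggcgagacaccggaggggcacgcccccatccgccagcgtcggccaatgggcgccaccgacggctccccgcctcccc
Dusp1: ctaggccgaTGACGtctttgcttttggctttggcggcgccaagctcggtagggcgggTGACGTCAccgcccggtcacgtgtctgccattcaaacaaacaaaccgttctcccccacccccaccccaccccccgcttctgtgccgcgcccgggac
Fos: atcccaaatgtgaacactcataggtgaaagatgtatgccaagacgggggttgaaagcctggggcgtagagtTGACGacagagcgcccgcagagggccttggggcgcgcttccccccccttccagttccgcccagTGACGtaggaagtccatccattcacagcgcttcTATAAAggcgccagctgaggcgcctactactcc

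A full CRE was found from -166 to -159 in Btg2 and from -143 to -136 in Dusp1, counted from the start site. Over all 32851 promoters, in windows of 250 bases before to 50 bases after the start, it was present in 1.79%. The variant, present in 3.62% of promoters, was found from -45 to -38 in Jun. The core, present in 20.8%, occurred at 2 positions in Fos, from -129 to -125 and from -66 to -62, and Fos also had a TATA box from -33 to -28, a motif of 13.6% of promoters. The core was also found for Atf3, Fosb, Junb and Nr4a1, and Junb had a TATA box just after its start. The AP-1 site (TGANTCA, 7.81% of promoters), the CArG box (1.63%) and the EGR site (GCGTGGGCG, 0.612%) were not found in the windows of the 8 genes with an entry. Egr1 and Ier2 had no entry. These matches describe letters in a short window and not bound factors.

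The levels spanned a wide range in the mucosa of both genotypes. Over the 6 libraries the mean FPKM was 131 ± 59.9 (SD, n = 6) for Fos, 91.3 ± 16.8 for Junb, 58.7 ± 19.2 for Jun, 37.0 ± 9.90 for Btg2, 35.6 ± 4.95 for Ier2 and 28.6 ± 17.2 for Atf3. Dusp1 followed at 4.21 ± 1.07, Fosb at 3.35 ± 2.23 and Egr1 at 2.23 ± 0.686. Fos was thus above 96.3% of all rows tested by its mean, whereas Egr1 was above 25.7%. In each of the 6 libraries Junb stood above Jun, Jun above Btg2, and Atf3 above Dusp1. The other neighbours in this order changed places between libraries, since Fos exceeded Junb in 4 of 6 libraries, Btg2 exceeded Ier2 in 3 and Dusp1 exceeded Fosb in 3, while Ier2 exceeded Atf3 and Fosb exceeded Egr1 in 4 each.

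Among the Fos genes, which supply the partners of Jun proteins in AP-1, Fos stood at 198 FPKM in K79S, 88.0 in K82S and 201 in K86S, against 89.9 in W83S, 146 in W89S and 62.0 in W90S. Thus 2 KO libraries lay above every WT library, and K82S lay below W83S. The log2 fold change of KO against WT, on log2(FPKM + 1), was 0.69 with an SE of 0.43, and the adjusted p was 0.501 (limma, Benjamini-Hochberg over all rows). Fosb, a close relative of Fos, stood at 5.04 FPKM in K79S, 0.939 in K82S and 6.35 in K86S, against 2.52 in W83S, 4.26 in W89S and 0.971 in W90S. Its lowest library was thus K82S, and the genotypes overlapped. The log2 fold change of Fosb was 0.41 with an SE of 0.57 (adjusted p = 0.779, limma). Without K82S both Fos and Fosb stood above WT in the 2 remaining KO libraries, with log2 fold changes of 1.09 and 1.01, and the adjusted p was 0.133 and 0.201 (limma). Without K82S, 11.9% of all rows had every KO library above every WT library.

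Jun, the AP-1 subunit that gave the family its name, stood at 81.4 FPKM in K79S, 69.8 in K82S and 69.9 in K86S, against 41.6 in W83S, 58.8 in W89S and 30.8 in W90S. The KO values did not overlap with the WT values, and the means were 73.7 ± 6.67 and 43.7 ± 14.1 FPKM (SD, n = 3). Its log2 fold change was 0.78 with an SE of 0.25 and a 95% confidence interval of 0.18 to 1.38. This did not pass the test, with an adjusted p of 0.393 (limma). Junb, which can oppose Jun on some promoters, stood at 110 FPKM in K79S, 113 in K82S and 85.6 in K86S, against 71.4 in W83S, 89.97 in W89S and 77.9 in W90S. The value of K86S lay between those of W83S and W89S, so that the genotypes overlapped. Its log2 fold change was 0.36 with an SE of 0.19 (adjusted p = 0.434, limma). The antisense gene Junos overlaps exons of Jun, and Prdx2 on the opposite strand overlaps exons of Junb. The handling of strand is not given in the sources used here, and reads of such partners could then not be told apart.

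Btg2, an antiproliferative cofactor of mRNA deadenylation, stood at 42.7 FPKM in K79S, 39.6 in K82S and 52.5 in K86S, against 29.4 in W83S, 32.2 in W89S and 25.5 in W90S. The genotypes did not overlap, with a KO mean of 44.9 ± 6.74 and a WT mean of 29.1 ± 3.36 FPKM (SD, n = 3). The estimated log2 fold change was 0.61 with an SE of 0.17 and a 95% confidence interval of 0.19 to 1.02, and the adjusted p was 0.393 (limma). Dusp1, a phosphatase that switches off MAP kinases, stood at 4.43 FPKM in K79S, 4.31 in K82S and 6.03 in K86S, against 3.40 in W83S, 4.14 in W89S and 2.93 in W90S. The genotypes again did not overlap, although K82S and W89S stood close together. Its log2 fold change was 0.40 with an SE of 0.17 (adjusted p = 0.393, limma), and exons of Ergic1 on the opposite strand overlap its annotated model. Btg2 and Dusp1 ordered the 6 libraries in the same way, from K86S, K79S and K82S down to W89S, W83S and W90S. Jun kept the same order of the WT libraries, with K79S the highest KO library.

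The remaining transcription factors and Ier2 overlapped between the genotypes. Egr1, a zinc finger factor often used as a mark of recent stimulation, stood at 1.84 FPKM in K79S, 3.09 in K82S and 2.67 in K86S, against 1.48 in W83S, 2.73 in W89S and 1.57 in W90S. Its level was low in every library, and its log2 fold change was 0.28 with an SE of 0.22 (adjusted p = 0.599, limma). The row placed for Egr1 carries 6 decimals, as do 99.7% of placed genes with 1 annotated transcript and 5.80% of those with several, whereas M21 lists 2 transcripts for it. Its placement is therefore less certain than that of the other genes. Atf3, a stress-induced member of the ATF/CREB family, stood at 33.0 FPKM in K79S, 14.8 in K82S and 34.4 in K86S, against 18.6 in W83S, 58.3 in W89S and 12.6 in W90S. The highest and the lowest library were both WT, and the log2 fold change was 0.09 with an SE of 0.59 (adjusted p = 0.955, limma). Ier2, a small nuclear protein, stood at 36.6 FPKM in K79S, 37.7 in K82S and 27.1 in K86S, against 32.6 in W83S, 38.1 in W89S and 41.1 in W90S. It was the only one of the 9 with a negative log2 fold change, -0.14 with an SE of 0.19 (adjusted p = 0.763, limma), and this turned to 0.036 when the libraries were scaled to the same sum.

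**Figure D1:**
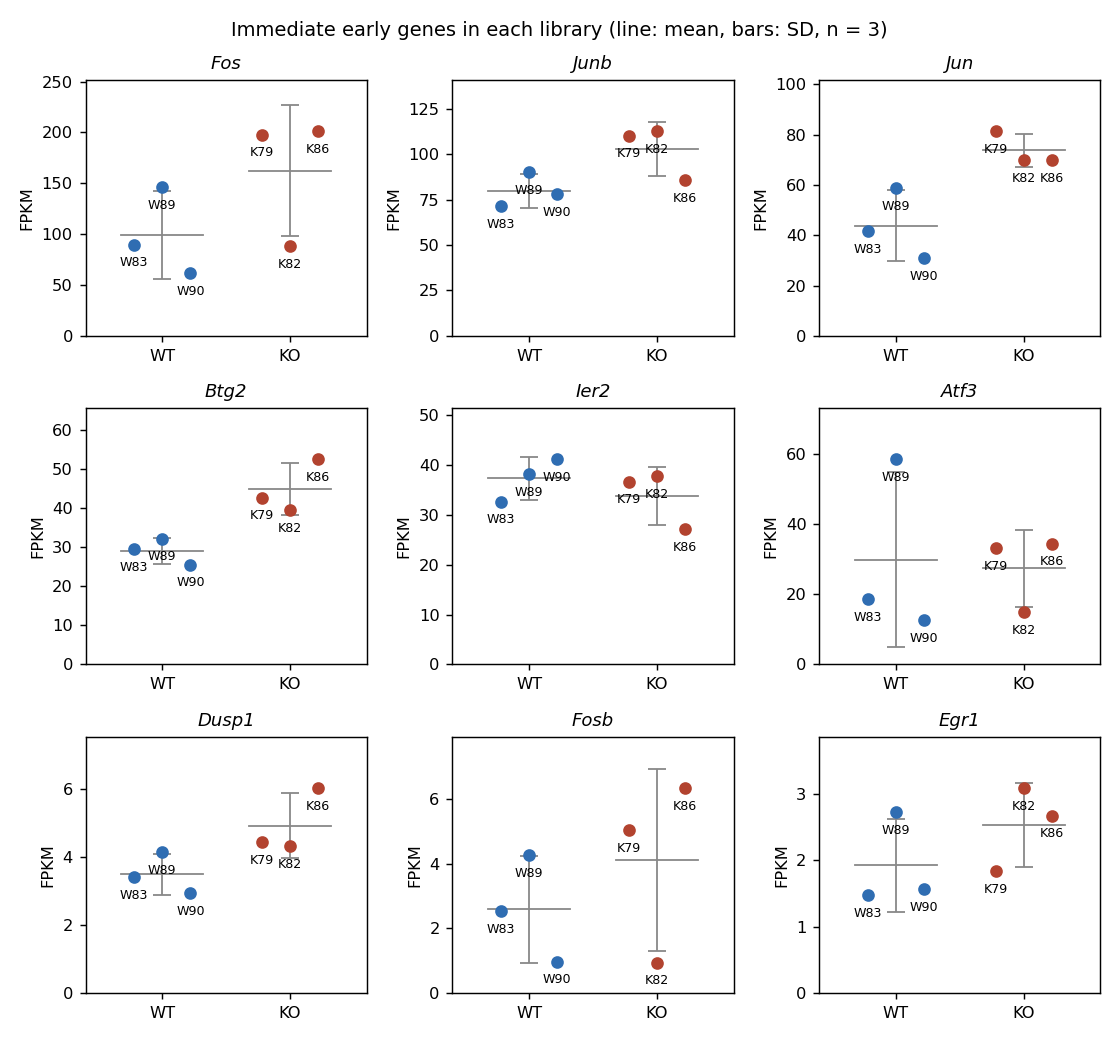
FPKM of each of the 9 placed genes (vertical axis, from 0) in the 3 WT and 3 KO libraries, with 1 labelled point per library, a grey line at the mean and bars for the SD (n = 3). The 3 KO points stand above the 3 WT points for Jun, Btg2 and Dusp1, while K82S stands apart from the other KO points for Fos, Fosb and Atf3.

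Between KO and WT, then, 8 of 9 genes had a positive log2 fold change and the median was 0.40, against 42.3% of all rows and a median of -0.06. The 8 include Atf3, whose KO mean on the FPKM scale (27.4 ± 10.9) was below its WT mean (29.8 ± 24.9) and whose log2 fold change was negative in 4 of the 6 fits that left out 1 library. None of the 9 passed the threshold (a fold change over 1.5 in either direction at an adjusted p under 0.05), which was passed by 1 of 13089 rows (0.00764%). At an unadjusted p under 0.05, 2 of the 9 were called, Jun and Btg2 (limma), with unadjusted limma p of 0.0179 and 0.0112, against 12.5% of all rows in either direction and 2.87% with KO above WT. For 3 of 9, Jun, Btg2 and Dusp1, the KO values all lay above the WT values, against 5.90% of all rows, and for 0 of 9 they all lay below, against 11.3%. After scaling to the same upper quartile or to the same sum Junb joined these 3, while 9.44% and 14.3% of all rows had KO above WT. Without K82S, 0 of 9 passed, against 9.28% of rows that passed in either direction and 0.400% that passed with KO above WT. The exact two-sided permutation test gave p = 0.1 for these 3 genes, which is the smallest value that 3 against 3 libraries allow, and between 0.2 and 0.9 for the others. The 9 genes were measured in the same libraries and are not replicates of the genotype.

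**Figure D2:**
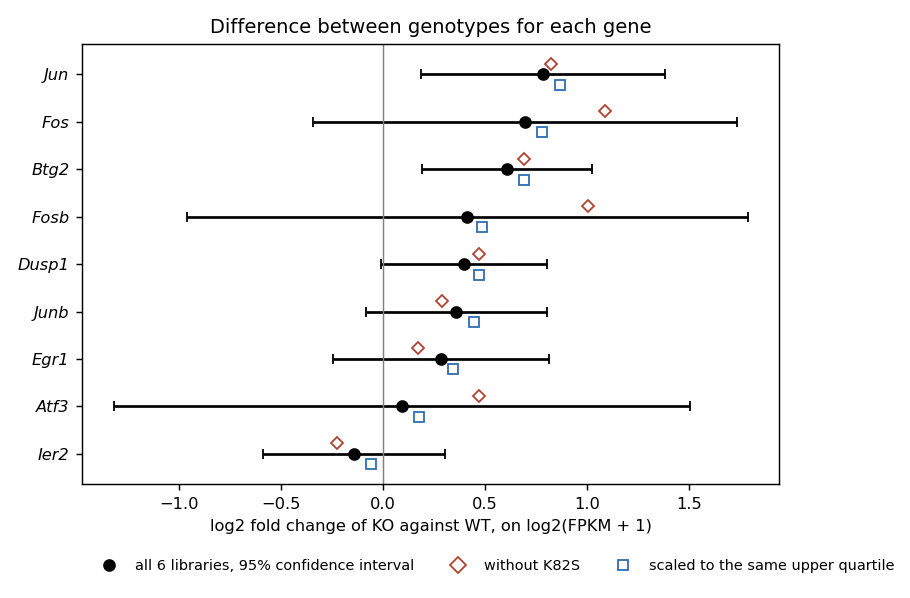
Log2 fold change of KO against WT on log2(FPKM + 1) (horizontal axis) for the 9 genes. Black points with bars give the limma estimate from all 6 libraries with its 95% confidence interval, red diamonds the estimate without K82S and blue squares that after scaling to the same upper quartile. The interval lies above 0 for Jun and Btg2 and includes 0 for the other 7 genes.

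The difference between the mice of one genotype was as large as that between the genotypes for part of the set. Within KO the highest library exceeded the lowest 6.76-fold for Fosb, 2.32-fold for Atf3 and 2.29-fold for Fos, and within WT it did so 4.39-fold, 4.65-fold and 2.36-fold. The SD of log2(FPKM + 1) within genotypes was 0.89 for Fosb, 0.91 for Atf3 and 0.65 for Fos, larger than in 96.5%, 96.7% and 92.3% of all rows tested. The other 6 genes were closer to the rest of the transcriptome. Their SDs exceeded those of 33.7% of rows for Btg2, 35.9% for Junb, 40.9% for Dusp1, 42.3% for Ier2, 62.2% for Egr1 and 68.1% for Jun.

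The same libraries recurred at the ends of the order. W90S was the lowest library for 5 of 9 genes and among the 2 lowest for 8, and W83S was among the 2 lowest for 6. K79S and K86S were among the 2 highest for 6 genes each. Ier2 went the other way at both ends, with W90S highest and K86S lowest. K82S stood apart from the other KO libraries for Fos, Fosb and Atf3, which were lower there, whereas for Junb, Jun, Ier2 and Dusp1 it lay close to one of them. W89S was among the 2 lowest for 0 of 9 genes and was the highest for Atf3.

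The make-up of the AP-1 families was compared within each library, on the FPKM scale, with Fosl2 and Jund taken from the list of other AP-1 and ATF factors. Of the 10 genes of that list, 6 had a placed row. The family sums cover only Fos, Fosb and Fosl2, and Jun, Junb and Jund. Fos made up 68.0% to 81.7% of the summed Fos, Fosb and Fosl2 level, and its lowest share was in K82S, where Fosl2 took 31.3%. Fosb stayed between 0.725% and 2.57%. In the Jun family Jund was the largest part in every library, at 51.1% to 58.0%, with Junb at 25.4% to 32.9% and Jun at 13.0% to 22.0%. The summed Fos family reached 251 FPKM in K79S, 129 in K82S and 247 in K86S, against 118 in W83S, 197 in W89S and 83.4 in W90S. The summed Jun family reached 422 FPKM in K79S, 413 in K82S and 318 in K86S, against 235 in W83S, 354 in W89S and 237 in W90S. K82S thus combined a Jun family level near that of K79S with a Fos family level near that of W83S, and its ratio of Fos family to Jun family was 0.313, the lowest of the 6 libraries, against 0.776 in K86S, the highest.

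**Figure D3:**
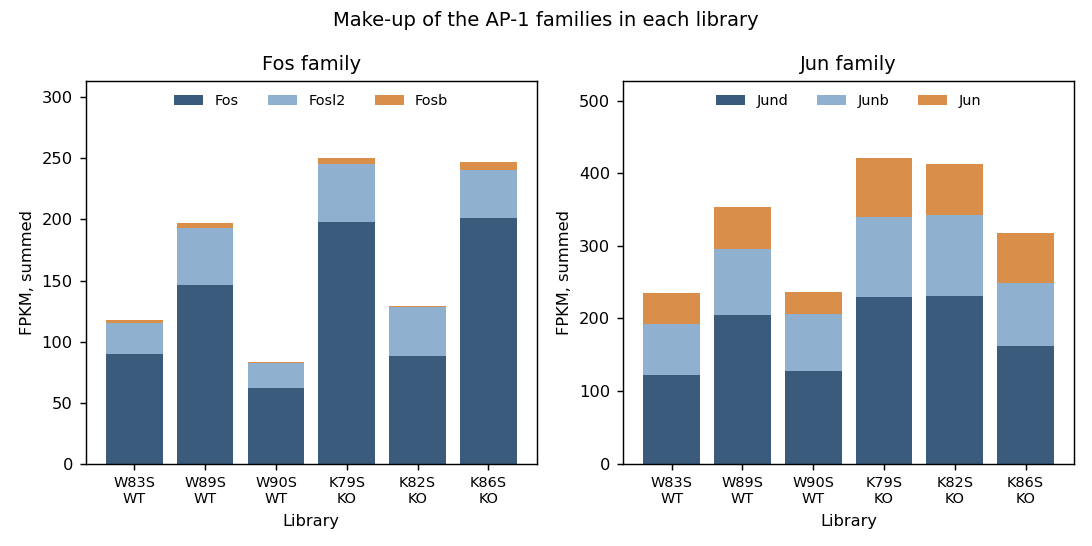
Summed FPKM (vertical axes, from 0) of the Fos family (left: Fos, Fosl2, Fosb) and the Jun family (right: Jund, Junb, Jun) in each library. The Fos family is lowest in W90S (83.4 FPKM) and highest in K79S (251 FPKM), and Jund is the largest part of the Jun family in all 6 libraries.

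Other genes of the same response were taken from lists. Of 6 tested members of the other AP-1 and ATF factors, 5 had a positive log2 fold change, 0 passed the threshold and the median was 0.15. Over all rows, 42.3% were positive and the median was -0.06. With 1 library left out, 4 to 6 of these members were positive. Jund, the constitutive Jun protein, had a KO mean of 208 ± 39.1 FPKM and a WT mean of 152 ± 46.6 (log2 fold change 0.47, SE 0.27), Fosl2 had 42.5 ± 4.87 and 30.9 ± 13.9 FPKM (0.52, SE 0.31), and the small Maf protein Mafk had 19.4 ± 1.83 and 17.9 ± 2.40 FPKM (0.11, SE 0.16; SD, n = 3). The genotypes overlapped for all 6. Of 10 tested members of the other induced transcription factors, 7 were positive with a median of 0.07, and 0 passed. With 1 library left out the count of positive genes ranged from 4 (without W83S) to 8. Klf4, which promotes differentiation of gut epithelium, had a KO mean of 190 ± 28.8 FPKM and a WT mean of 136 ± 37.4, Klf6 had 46.3 ± 11.4 and 37.2 ± 7.95 FPKM, and Cebpb had 40.0 ± 15.6 and 38.9 ± 6.86 FPKM, all with overlap. Myc, named after its values were seen, was the 1 gene of this list without overlap, with 2.03 FPKM in K79S, 3.59 in K82S and 1.38 in K86S, against 5.26 in W83S, 4.54 in W89S and 3.82 in W90S. Its log2 fold change was -0.78 with an SE of 0.25 (adjusted p = 0.393, limma), opposite in sign to that of Jun. All KO values lay below all WT values for 1 of the 10 genes, near the 11.3% of all rows.

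Of 12 tested genes for feedback phosphatases, mRNA decay and cytokine feedback, 8 were positive, 0 passed and the median was 0.08. Over all rows, 42.3% were positive. The count of 8 was 6 to 8 with 1 library left out, and 10 after scaling to the same upper quartile. That scaling also moved the median log2 fold change of all rows from -0.06 to 0.0043. Zfp36, which binds AU-rich elements and speeds the decay of mRNAs such as Fos, stood at 85.1 FPKM in K79S, 77.7 in K82S and 96.3 in K86S, against 56.5 in W83S, 53.4 in W89S and 61.2 in W90S. The genotypes did not overlap, and the log2 fold change was 0.59 with an SE of 0.16 (adjusted p = 0.393, limma). Zfp36 was the 1 gene of this list with all KO values above all WT values, against 5.90% of all rows. Nfkbia, the inhibitor of NF-kappaB, and Dusp6, a phosphatase for ERK, overlapped between genotypes, with log2 fold changes of -0.03 and 0.08. Dusp4, a relative of Dusp1 named after its values were seen, lay lower in all KO libraries, with 1.74 FPKM in K79S, 1.99 in K82S and 3.01 in K86S, against 3.05 in W83S, 3.45 in W89S and 3.82 in W90S. Its log2 fold change was -0.47 with an SE of 0.18 (adjusted p = 0.393, limma), so that Dusp1 and Dusp4 differed in sign. Dusp4 was the 1 gene of this list with all KO values below all WT values, against 11.3% of all rows.

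All 13 tested members of the other induced effectors had a positive log2 fold change, against 42.3% of all rows, and 0 passed, with a median of 0.24. With 1 library left out, 10 to 13 were positive, the fewest without W90S. Mcl1, a survival factor of the Bcl-2 family, had a KO mean of 96.8 ± 13.1 FPKM and a WT mean of 89.5 ± 15.3, Tob1, a relative of Btg2, had 102 ± 29.3 and 84.3 ± 14.3 FPKM, and the GTPase gene Rhob had 97.2 ± 25.9 and 71.2 ± 49.3 FPKM (SD, n = 3). The genotypes overlapped for these 3, and Gadd45a, named after its values were seen, was the 1 gene of this list without overlap (48.4 ± 7.10 and 36.9 ± 6.50 FPKM). All KO values lay above all WT values in 5.90% of all rows. The kinases and bound factors that act upstream of the immediate early genes had a median of 0.06, with 0 passed and 0 without overlap. Of these, 7 of 12 were positive, against 42.3% of all rows. The count was 11 after scaling to the same upper quartile and 10 without W89S. The 42.3% is from the unscaled fit, and this scaling moved the median of all rows from -0.06 to 0.0043. Mapk3 (ERK1) had a log2 fold change of 0.08 (SE 0.17), Map2k2 of -0.01 (SE 0.23) and Map2k1 of 0.13 (SE 0.15).

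**Figure D4:**
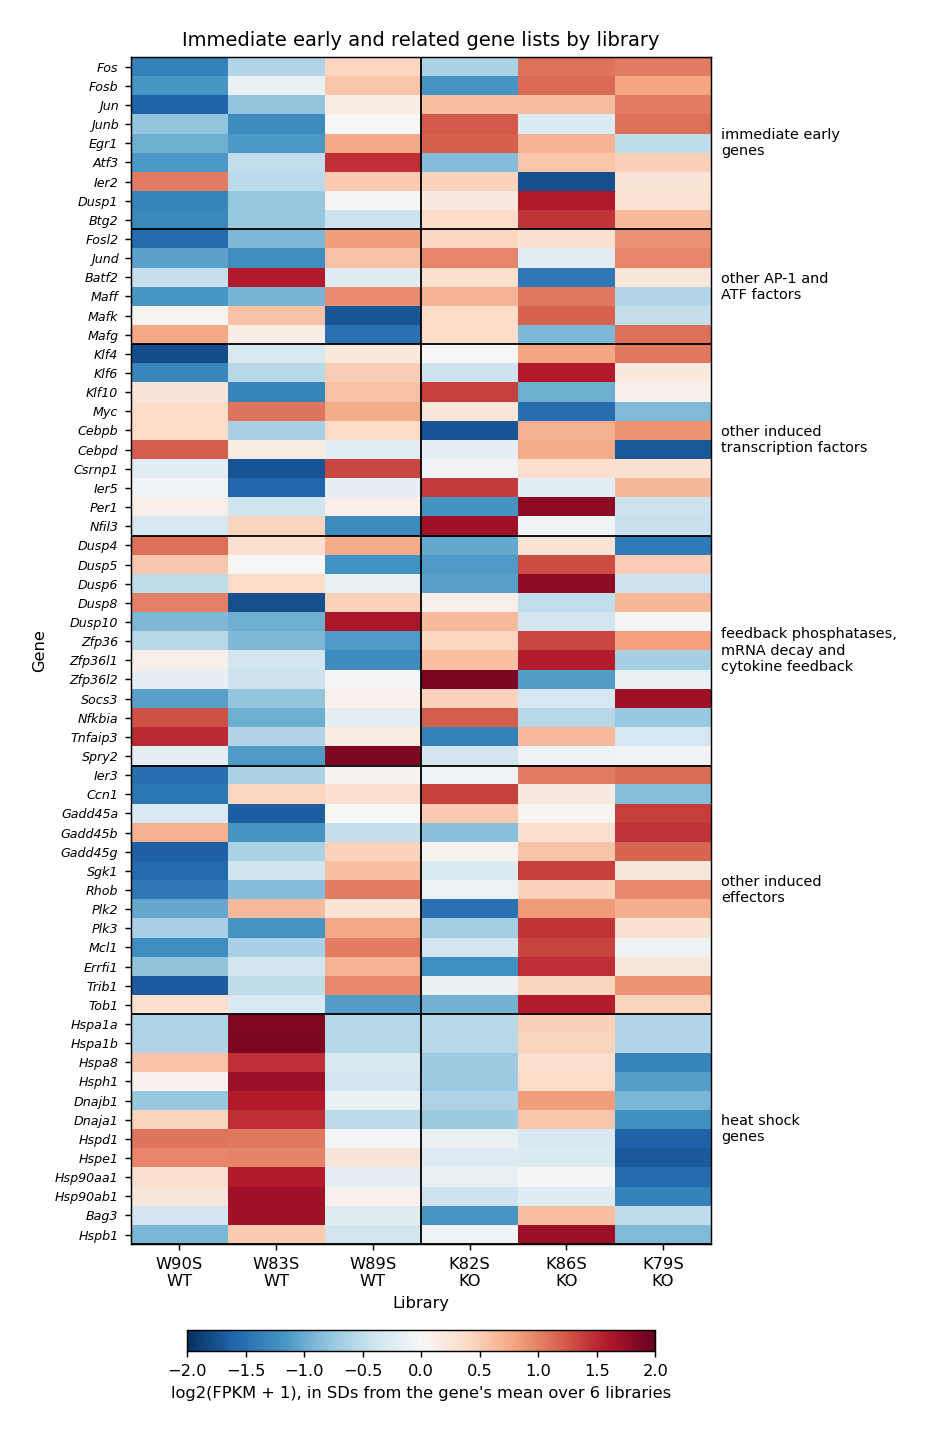
Standardised log2(FPKM + 1) of the tested genes of 6 lists (rows) in each library (columns, WT left and KO right of the black line), in SDs from the mean of the gene over the 6 libraries. Most immediate early genes and other induced effectors are low in W90S and W83S, and most heat shock genes are highest in W83S.

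The genes whose pattern was most like the average of the 9 over the 6 libraries were sought among all other named rows tested, as a description. The highest Pearson r between log2(FPKM + 1) and the mean of the standardised values was 0.989 for Plekha1, 0.986 for Zfp703, 0.982 for Naif1, 0.981 for Cmip and 0.977 for Gm10060, each over 6 libraries. Zfp703 stood at 28.2 FPKM in K79S, 22.4 in K82S and 25.5 in K86S, against 17.0 in W83S, 26.6 in W89S and 14.7 in W90S. As for the average of the 9 genes, W90S and W83S were the lowest libraries. Such values are bound to be high for the best of so many genes over 6 libraries. All genes of a library also share its depth and scaling, which differ between libraries. By the counts that the study reports, K86S had the fewest mapped reads and W83S the most. The summed FPKM ran from 393152 in K79S to 465901 in K82S within KO, and from 473383 in W90S to 495362 in W89S within WT.

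Several libraries stood apart in ways that touch these values. The Enpp7 row stood at 605 FPKM in K79S, 129 in K82S and 670 in K86S, against 406 in W83S, 667 in W89S and 495 in W90S, and a value over the whole gene cannot check the removal of 1 exon. Enterocyte markers were abundant in every library, with a summed level of 24911 to 40594 FPKM in KO and 33746 to 37655 FPKM in WT for 10 of 10 markers. W83S alone carried gastric genes, with 15727 FPKM for Tff1 and 15082 for Pgc, and the summed level of the 8 placed gastric and pancreatic markers was 38539 FPKM there against 1.08 to 8.52 in the other 5 libraries. Ddx3y, a Y-linked gene, was at 0.0279 FPKM in K79S and at 2.93 to 4.01 FPKM in the other 5. When each of the 6 libraries was left out in turn, the log2 fold change ranged from 0.56 to 1.02 for Jun, from 0.49 to 0.69 for Btg2 and from 0.27 to 0.50 for Dusp1.

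Markers of other cell types moved with the genotype in part. The 8 placed of 10 leukocyte markers summed to 1677 to 1955 FPKM in KO and 674 to 1009 FPKM in WT, most of it Cd74, and 4 of the 8, Cd74, Cd3e, Cd8a and Itgax, lay higher in every KO library than in any WT library, against 5.90% of all rows. Lyz2 and Cd79a overlapped between the genotypes, with log2 fold changes of -1.30 and -0.26. The part of leukocytes in the values of Jun, Btg2 and Dusp1 was not tested, and in bulk tissue more cells of a type and more RNA per cell cannot be told apart. Smooth muscle markers (4 of 8 placed) summed to 16.5 to 30.1 FPKM in KO and 12.8 to 36.1 FPKM in WT, and fibroblast and endothelial markers (3 of 9) to 3.85 to 10.3 and 3.19 to 5.39 FPKM, while 0 of 8 markers of enteric neurons and glia were placed. Markers of the proximal and distal small intestine differed between mice, with the proximal sum lowest in K82S (1065 FPKM) and highest in W90S (5736 FPKM), and the distal sum lowest in K86S (307 FPKM) and highest in K82S (1625 FPKM). Most of the proximal sum was Fabp1 (5415 FPKM in W90S), while Gata4, Pdx1, Cybrd1 and Slc40a1 were highest in W83S, at 47.2, 5.44, 6.05 and 7.08 FPKM. The part of position along the gut in these values was not tested.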

How the data were processed

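Mucosal RNA of 3 KO and 3 WT mice was sequenced. The authors used trim-galore on 50 bp single-end reads, then HISAT2 for mapping to mm10 and StringTie for assembly, and deposited FPKM values for 22700 genes. Tool versions and the handling of strand are not given in the sources used here. The deposited values carry no read counts, and no counting intervals were made.

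Identifiers were returned to their rows by rank, pairing the identifier ranking by K79S with the row ranking by W83S at fixed offsets, which placed 12402 identifiers. As a check, rows with at most 6 decimals, the mark of a single transcript, were compared with the annotation. Around each of the 9 genes this mark matched the annotation for 93.4% to 99.2% of placed identifiers, and for at most 68.4% at other offsets of up to 4 ranks. The number of unmapped sample columns was 0.

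Rows with at least 1 FPKM in at least 2 libraries were kept (13089). R 4.3.3 with limma 3.58.1 (lmFit, eBayes with trend) served to fit log2(FPKM + 1) over all 6 libraries without covariates, with Benjamini-Hochberg adjustment over all rows. FPKM are not counts, so the edgeR test used by the authors was not run. For each member an exact permutation test, two-sided, was added. On simulated data with independent noise and no outlying library, 200 of 13089 rows were changed by 2 on the log2 scale. Low means among these 200 rows were first raised. Of the 200, 167 were recovered with 10 false calls. The largest estimate among the members was 0.78 (Jun), and recovery of changes of that size was not tested. The libraries are separate mice, so the limma p-values set the difference between genotypes against the spread between mice.

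Genes named by rule were the 10 members, the 3 most abundant of each other list and any past the threshold. The 5 rows most like the members and Enpp7 were also named by rule. Other genes were named outside this rule, among them Ddx3y, Hspe1 and single marker genes. Cd3e, Cd8a, Itgax and Hspe1 were named because their genotypes did not overlap. The members and lists were chosen with earlier results of these data known. The alternatives were other pseudocounts, filters, scalings, variance settings and leaving out each library. Motifs were searched in RefSeq promoters (GRCm38.p6), which held 8 of the 10 genes.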

Additional observations from a re-analysis of the deposited data

How the results depend on the processing

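For the immediate early genes, the count past the threshold was 0 under every alternative, with adjusted p between 0.065 and 0.996 (limma). The KO libraries lay above the WT libraries for 3 genes (5.90% of all rows), and for 3 to 5 when 1 library was left out, which cannot lower the count. Fos and Fosb joined without K82S (11.9% of all rows), Junb without K86S (12.5%), and Junb and Egr1 without W89S (12.5%). Leaving out K82S and W83S together, chosen after seeing the data, gave 5 genes (14.4%). The within-genotype SD lay above the upper quartile of all rows for 3 genes, also with a pseudocount of 0.1 or the upper quartile scaling. The sign of Ier2 turned to 0.036 when scaled to the same sum, and its log2 fold change ranged from -0.23 (without W83S) to 0.0025 (without K86S) with 1 library left out. That of Atf3 ranged from -0.35 (without W90S) to 0.71 (without W89S), and was also negative without K79S, K86S or W83S (-0.084, -0.11 and -0.087). The cause was not tested. Without W83S, and without both K82S and W83S, all KO libraries lay below the WT libraries for Ier2, against 20.7% and 38.4% of all rows.

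Over all rows, 1 passed, 0 with a pseudocount of 0.1 or 0.01, 2 with array weights, 0 to 1184 with 1 library left out (1184 without K82S, which had the lowest array weight, 0.302) and 1111 without K82S and W83S. Rows without overlap numbered 2255, 2921 to 5646 with 1 library left out (5646 without K82S) and 6603 without K82S and W83S, where fewer libraries have to be separated. Scaling to the same sum moved the median log2 fold change of all rows from -0.06 to 0.09, and the rows without overlap from 772 higher and 1483 lower in KO to 1869 higher and 765 lower. With the same upper quartile they were 1236 higher and 1292 lower. No paired analysis was possible because the labels do not say which mice form a pair, although the study speaks of matched pairs. The counting error of low values such as those of Egr1 and Fosb was not estimated.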

Other observations

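The heat shock genes, a stress response that runs through another factor than the immediate early genes, were described for the same libraries. Of 12 tested genes, 11 had a negative log2 fold change of KO against WT, with a median of -0.69, and 0 passed the threshold. Over all rows, 7551 of 13089 were negative and the median was -0.06. The count of positive genes rose from 1 to 4 without W83S and was 0 without K86S. Hspa1a and Hspa1b, inducible Hsp70 genes that are near-identical copies and may share reads, were named after their values were seen. Hspa1b stood at 4.44 FPKM in K79S, 4.72 in K82S and 17.9 in K86S, against 101 in W83S, 4.58 in W89S and 4.33 in W90S. Hspa1a followed the same order at the top, with 83.6 FPKM in W83S and 14.5 FPKM in K86S. Fos had 89.9 FPKM in W83S, the highest library for both Hsp70 genes, and 201 FPKM in K86S, the next highest. K86S was also the highest library for Fos. A link between the Hsp70 and Fos levels was not tested.

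Hsp90ab1, an abundant Hsp90 chaperone, had a KO mean of 110 ± 22.2 FPKM and a WT mean of 181 ± 61.9, Hspa8 had 90.2 ± 26.9 and 134 ± 40.7 FPKM, and the mitochondrial chaperonin Hspd1 had 18.6 ± 5.91 and 33.5 ± 8.45 FPKM (SD, n = 3). Hsp90ab1, Hspd1 and its partner Hspe1 were the 3 genes of the list whose KO libraries all lay below the WT libraries, against 11.3% of all rows, with log2 fold changes of -0.69, -0.84 and -0.99 and an adjusted p of 0.393 for each (limma). W83S, the highest library for most of these genes, also carried the gastric genes.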
